A study of Mus musculus with 2 samples.

Results

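Apoptosis is a regulated form of cell death that can start at the cell surface or at mitochondria. At the surface, ligand-bound death receptors such as Fas recruit adaptors and initiator caspases. At mitochondria, BH3-only proteins sense damage and either activate the pore-forming proteins Bax and Bak1 or neutralise the anti-apoptotic proteins Bcl2, Bcl-xL (encoded by Bcl2l1) and Mcl1, which hold the pore-formers in check. Caspases then cut cellular proteins. In pancreatic islets this machinery is known for its part in β-cell loss during autoimmunity and during stress of the endoplasmic reticulum (ER).

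The genes described here are 9 members of that machinery: the receptor gene Fas, the BH3-only genes Bbc3 (PUMA) and Bcl2l11 (BIM), the pore-formers Bax and Bak1, the anti-apoptotic genes Bcl2, Bcl2l1 and Mcl1, and the caspase gene Casp12. They were taken by symbol from the deposited expression table, and all 9 were among its 17245 genes. RNA was sequenced from isolated, cultured mouse islets, with 1 library from wild-type mice (WT) and 1 from mice labelled cGASβKO (KO), in which the DNA sensor cGAS is named as knocked out in β-cells. The sources used here do not give the age or strain of the mice, how many were pooled, which exon was deleted or what drove the recombinase. Values are FPKM (a read or fragment count divided by gene length in kilobases and by the library total in units of 1000000), so levels of different genes can be compared per length. With 1 library per genotype no difference has a replicate check and no test was possible; each difference is one between these 2 libraries.

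A search for whole read numbers gave library totals of 14537660 reads for KO and 19097001 for WT, and the intervals given here are exact 95% intervals for counting error on those reads. Cgas itself was at 0.521 FPKM in KO and 0.205 FPKM in WT (31 and 16 reads), a ratio of 2.55 (1.35 to 4.98), so the targeted gene's total was not lower in the library labelled KO and every direction below is between libraries as labelled. Genes that reached 1 FPKM in 1 or both libraries are called expressed here, 12428 in all. On the log2(FPKM + 1) scale 868 of them were higher in KO by 2-fold or more and 482 lower, and the median log2 ratio was 0.077. The split turned to 693 higher and 796 lower with both columns scaled to sum to 1000000, and to 555 higher and 714 lower with sums made equal without the 20 highest genes; these scalings moved the median of all genes by -0.12 and -0.14. Levels of marker genes of several other cell types differed too. The 6 alpha-cell markers had a median log2 ratio of 0.084, with 3 above 0 and none past 2-fold. All 5 markers of delta and pancreatic polypeptide cells were above 0, with a median of 0.64 and 1 at least 2-fold higher. Of 5 expressed ductal markers 4 were above 0, with a median of 0.66 and none past 2-fold. All 13 macrophage markers were higher in KO, 7 of them at least 2-fold, with summed levels of 393 FPKM in KO and 171 FPKM in WT. All 12 endothelial markers were higher, 6 at least 2-fold, with sums of 842 and 367 FPKM, and all 10 expressed markers of fibroblasts and pericytes were higher, 2 at least 2-fold, with sums of 213 and 111 FPKM. Acinar markers lay the other way, with all 13 expressed ones lower in KO by more than 2-fold, sums of 138 and 2190 FPKM, and the acinar factor Ptf1a listed at 0 in KO. Of 12 β-cell markers 4 were above 0 in log2 ratio, with a median of -0.55; Nkx6-1, Slc2a2, G6pc2 and Glp1r were among those lower by 2-fold or more, and Ins1 among those higher. Ins1 was at a log2 ratio of 1.06 and Ins2 at -0.46, and their sum made up 55.6% of all FPKM in KO and 53.4% in WT. The medians were also taken with a trend on GC content and length removed, as described below. They were then -0.19 for alpha-cell, 0.0095 for delta and pancreatic polypeptide cell and 0.18 for ductal markers. Macrophage markers were at 0.45 with 1 at least 2-fold higher, and endothelial markers at 0.95 with 5, beside 3.24% of all genes. Fibroblast and pericyte markers were at 0.80, acinar markers at -4.35 and β-cell markers at -0.59. In whole islets, fewer cells of a type and less RNA per cell cannot be told apart.

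Among the 9 genes, Fas, Bbc3 and Casp12, which act at the cell surface, upstream of mitochondria and among the caspases, were higher in KO by 2-fold or more, and none was lower by 2-fold. Over all expressed genes the shares past the same limit were 6.98% higher and 3.88% lower. The median log2 ratio of the 9 genes was 0.38. Bax lay just under the 2-fold limit, and the other 5 genes lay well inside it. The plot of levels by library shows these differences beside their counting intervals.

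**Figure D1:**
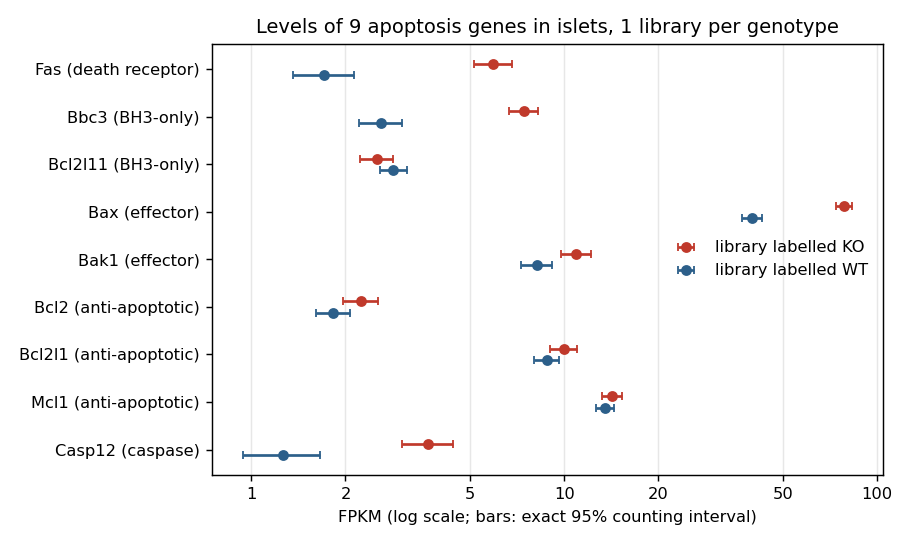
Levels in FPKM (horizontal log axis) of the 9 genes, ordered by role, in the library labelled KO (red) and the library labelled WT (blue); bars are exact 95% counting intervals and do not include variation between mice. The intervals of Fas, Bbc3, Bax, Bak1 and Casp12 do not overlap between the libraries, while those of Bcl2, Bcl2l1, Mcl1 and Bcl2l11 do. Overlap is not a test of a difference, and the interval of the ratio of Bcl2 is 1.02 to 1.47.

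Fas (chromosome 19, 34290647 to 34327775 in GRCm38.p6) encodes the receptor that binds Fas ligand on cytotoxic lymphocytes. It was at 5.94 FPKM in KO (5.16 to 6.79) and 1.71 FPKM in WT (1.36 to 2.13), from 211 and 80 reads. The ratio was 3.46 (2.67 to 4.54), the widest of the 9 genes, and the log2 ratio of 1.35 was above that of 98.0% of expressed genes. Fas thus stood at place 8 of the 9 genes in WT, where its interval overlapped those of Bcl2 and Casp12. In KO it stood at place 6, where its interval overlapped that of Bbc3. Its ligand gene Fasl, named after its values were seen, was listed at 0 in KO and at 0.027 FPKM in WT. Of 11 lymphocyte markers 2 reached 1 FPKM in either library. The B-cell gene Cd79a was lower by more than 2-fold in KO, at 2.68 against 7.11 FPKM. The other, Ptprc, was at 3.28 against 2.35 FPKM, a ratio of 1.39 (0.841 to 2.31). That interval rests on the smallest whole reads, 35 and 33, at a length of 734 bases. The GENCODE transcript used for Ptprc has 5074 bases, so the real reads may be a multiple of these and the interval narrower. With no floor, 6 of the 11 markers were above 0 in log2 ratio. Among these was the B-cell gene Cd79b, with 17 and 6 reads and a ratio of 3.72 (1.40 to 11.5). The markers thus did not all lie in the direction of Cd79a.

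Bbc3 (chromosome 7, 16308398 to 16318334) encodes PUMA, a BH3-only protein induced by p53 and by other stress signals. It was at 7.42 FPKM in KO (6.67 to 8.24) and 2.60 FPKM in WT (2.21 to 3.03), a ratio of 2.85 (2.36 to 3.46) and a log2 ratio of 1.23. Bcl2l11 (chromosome 2, 128126038 to 128162547) encodes BIM, the other BH3-only protein of the set, which binds all the main anti-apoptotic family members. It was at 2.52 FPKM in KO (2.22 to 2.84) and 2.85 FPKM in WT (2.57 to 3.15), a ratio of 0.884 (0.752 to 1.04). No difference of Bcl2l11 was therefore detectable at this depth. Both BH3-only genes had overlapping intervals in WT, whereas in KO Bbc3 was 2.95 times the level of Bcl2l11. Bcl2l11 overlaps the protein-coding gene Acoxl, and the sources used here do not say how reads in an overlap were counted.

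Bax (chromosome 7, 45461695 to 45466903) encodes a pore-former that moves from the cytosol to mitochondria. It was the most abundant of the 9 genes in both libraries, at 78.3 FPKM in KO (73.7 to 83.2) and 39.8 FPKM in WT (36.9 to 42.8). The ratio was 1.97 (1.79 to 2.17) and the log2 ratio 0.96, above 92.1% of expressed genes, so its interval spans the 2-fold limit. Bak1 (chromosome 17, 27019812 to 27028627) encodes the pore-former that sits in the outer mitochondrial membrane. It was at 10.9 FPKM in KO (9.75 to 12.2) and 8.16 FPKM in WT (7.28 to 9.11), a ratio of 1.34 (1.14 to 1.57). Bax exceeded Bak1 7.17-fold in KO and 4.88-fold in WT. Bak1 overlaps Ggnbp1, so its reads are less certain.

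The 3 anti-apoptotic genes differed little. Mcl1 (chromosome 3, 95656944 to 95663179) encodes a short-lived protein that binds Bak1 and BH3-only proteins, and was the highest of the 3 at 14.2 FPKM in KO (13.2 to 15.3) and 13.5 FPKM in WT (12.7 to 14.5). Its ratio was 1.05 (0.952 to 1.16), and its log2 ratio of 0.068 fell below 0 with both columns scaled to sum to 1000000 (-0.070) and when sums were made equal without the 20 highest genes (-0.072). The reads of Mcl1 were set at the length of its longest GENCODE transcript, because the length that gives whole reads was longer than the gene. Bcl2l1 (chromosome 2, 152758732 to 152833803), which encodes Bcl-xL, was at 9.96 FPKM in KO (9.01 to 11.0) and 8.82 FPKM in WT (8.03 to 9.66), a ratio of 1.13 (0.986 to 1.29). Its model overlaps Cox4i2. Bcl2 (chromosome 1, 106538176 to 106714290), the founding member of the family, was at 2.24 FPKM in KO (1.96 to 2.54) and 1.82 FPKM in WT (1.61 to 2.06), a ratio of 1.23 (1.02 to 1.47). Together the 3 genes summed to 26.4 FPKM in KO and 24.2 FPKM in WT.

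Casp12 (chromosome 9, 5345442 to 5373034) encodes a caspase of the inflammatory group that has been linked to ER stress in rodents. It was the lowest of the 9 genes in WT at 1.26 FPKM (0.937 to 1.66) and stood at 3.66 FPKM in KO (3.02 to 4.41), from 51 and 113 reads. The ratio was 2.91 (2.07 to 4.13) and the log2 ratio 1.05. With sums made equal without the 20 highest genes the log2 ratio was 0.93, short of 2-fold, against a median of all genes of -0.059. The 13 macrophage markers and 12 endothelial markers were higher in the same library, as given above, with medians of 1.06 and 1.00. With the trend on GC content and length removed these medians were 0.45 and 0.95. The part of these cell types in the values of Fas and Casp12 was not tested.

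Ratios between genes of the same library do not depend on how the library was scaled. Bax and Bak1 together were 3.38 times the sum of the 3 anti-apoptotic genes in KO and 1.98 times in WT. Bbc3 was at 0.281 of that sum in KO and 0.108 in WT, while Bcl2l11 was at 0.0952 and 0.118. Bax relative to Mcl1 was 5.50 in KO and 2.94 in WT, and Fas relative to Mcl1 was 0.417 and 0.127. These ratios show unequal differences among the genes, and they carry any effect of gene composition on the counts.

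The promoters of the 4 genes with the widest ratios are shown. Whether these genes share regulation was not tested. Each stretch precedes a start site in RefSeq (GRCm38.p6) and is written 5′ to 3′ on the strand of the gene, leaving out bases that a GENCODE exon of the gene covers and, where the edge of the RefSeq gene model falls inside the window, bases past that edge. Start windows matched all 9 genes. Bbc3 has 3 listed start windows, and the most upstream one is shown; it lies wholly inside the span of the gene model, where GENCODE has no exon of the gene. Capitals mark matches on either strand to any of 7 motifs: the GC box GGGCGG, the CCAAT box CCAAT, the TATA box TATAAA, the AP-1 site TGANTCA, the C/EBP site TTGCNNAA, the p53 half-site and the NF-kB site.
Fas, chr19:34290409-34290646, plus strand: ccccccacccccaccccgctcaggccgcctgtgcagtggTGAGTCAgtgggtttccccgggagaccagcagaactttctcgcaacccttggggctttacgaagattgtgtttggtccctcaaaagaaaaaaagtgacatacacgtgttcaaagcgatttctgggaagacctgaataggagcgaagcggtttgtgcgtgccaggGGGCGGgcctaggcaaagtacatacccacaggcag
Bbc3, chr7:16309333-16309582, plus strand: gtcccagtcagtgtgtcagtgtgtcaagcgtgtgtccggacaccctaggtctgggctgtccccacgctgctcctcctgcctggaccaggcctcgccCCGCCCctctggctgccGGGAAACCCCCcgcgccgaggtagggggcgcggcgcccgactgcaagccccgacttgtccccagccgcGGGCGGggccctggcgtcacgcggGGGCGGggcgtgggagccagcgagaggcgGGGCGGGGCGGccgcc
Casp12, chr9:5345226-5345429, plus strand: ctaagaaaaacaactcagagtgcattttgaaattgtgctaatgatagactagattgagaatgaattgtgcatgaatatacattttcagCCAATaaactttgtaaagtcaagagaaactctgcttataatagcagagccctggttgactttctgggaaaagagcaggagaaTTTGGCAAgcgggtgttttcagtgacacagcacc
Bax, chr7:45466904-45467148, minus strand: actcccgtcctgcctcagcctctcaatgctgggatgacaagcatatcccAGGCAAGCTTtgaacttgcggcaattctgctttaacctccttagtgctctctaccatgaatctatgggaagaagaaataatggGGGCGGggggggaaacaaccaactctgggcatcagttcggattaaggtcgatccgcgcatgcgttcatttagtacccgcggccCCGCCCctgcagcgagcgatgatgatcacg

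Motifs were counted in the 250 bases before each start site. The 4 promoters had little in common in base composition: G and C made up 76.4% of the Bbc3 window, 56.4% of Fas, 54.0% of Bax and 39.2% of Casp12, against a median of 52.4% over 32851 windows (quartiles 45.2% and 61.2%). The Bbc3 window held 27 CpG dinucleotides and the Casp12 window 1. The GC box, found in 32.7% of all windows, matched 5 times in the Bbc3 window (2 of the matches overlap in the last capital run), 2 times in Bax, 1 time in Fas and not in Casp12. It also matched in windows of Bcl2, Mcl1 and Bcl2l11, which were inside the 2-fold limit. The Fas window held 1 AP-1 match (6.75% of all windows hold one), and the Casp12 window 1 C/EBP match (9.56% of all windows). Casp12 also held 2 CCAAT matches on opposite strands, a motif found in 33.8% of windows; the match nearer the start site lies in the bases left out. The Bbc3 window shown held 2 overlapping NF-kB matches (7.25% of windows), and the other Bbc3 windows held none. The Bax window held 1 p53 half-site (7.13% of windows). An NF-kB match also lay in a window of Bcl2l1, and CCAAT matches in windows of Bcl2l11 and in another Bbc3 window. Bcl2l1 and Bcl2l11 were inside the 2-fold limit. No TATA box, found in 12.4% of all windows, matched in any window of the 9 genes. A match is a string of letters and does not show binding.

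The higher members differed in GC content, and GC content moved with the log2 ratio over all genes. Among 12374 expressed genes with a GENCODE transcript, the median log2 ratio was -0.27 in the quintile with the lowest GC content and 0.45 in the quintile with the highest, and 2.30% and 15.4% of genes were at least 2-fold higher. Bbc3 (65.2% GC) and Bax (63.5%) belonged to the highest quintile, as did Bak1 (57.1%). Fas (43.4%) and Casp12 (37.3%) belonged to the lowest quintile, in which such ratios were rarest. Shorter transcripts were higher too: 15.9% of the shortest quintile, which holds Fas and Bax, were at least 2-fold higher, against 1.41% of the longest quintile, which holds Bcl2. After removal of a smooth trend on GC content and then on length, 2 of the 9 genes were at least 2-fold higher, Fas at 1.37 and Casp12 at 1.34, where 3.24% of all genes were, and none was lower, where 2.96% were. Bbc3 was then at 0.49 and Bax at 0.055, below Mcl1 at 0.15. Bak1 (-0.053), Bcl2l1 (-0.20) and Bcl2l11 (0.095) changed sign, and Bcl2 was at 0.57.

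**Figure D2:**
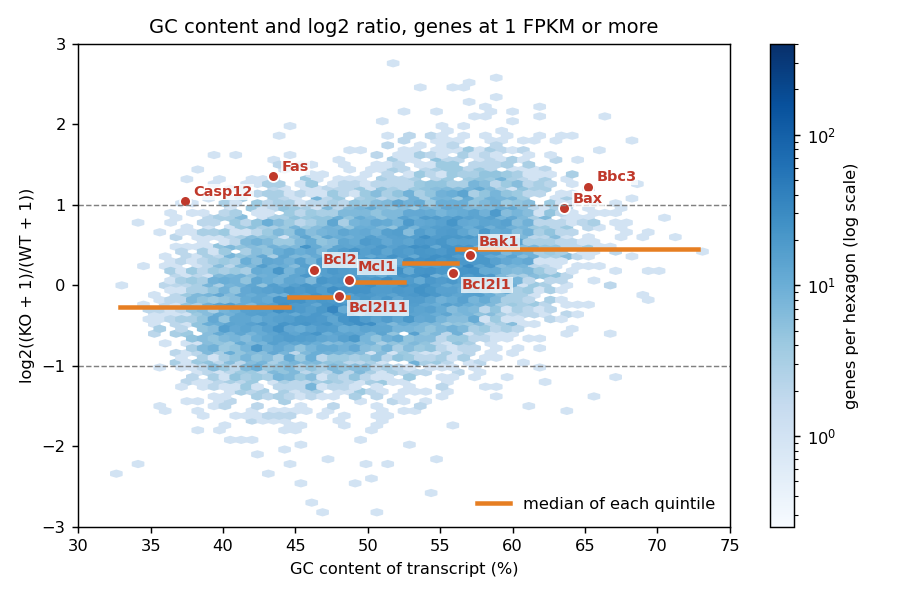
Log2 ratio (vertical axis) against GC content of the transcript in % (horizontal axis) for expressed genes, as a density of genes on a log colour scale; orange bars are medians of quintiles by GC content, red points are the 9 genes, dashed lines mark 2-fold, and genes beyond 3 on either side are not drawn. The medians go from -0.27 to 0.45, with Fas and Casp12 at the upper edge on the GC-poor side and Bbc3 and Bax on the GC-rich side.

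The plot of settings puts these values beside the other choices. Fas was at least 2-fold higher in 8 of the 9 alternatives that keep the 2-fold limit, Bbc3 in 7 of 9 and Casp12 in 6 of the 8 in which it kept a value. These counts include the alternatives with no floor and with a floor of 5 FPKM. A floor cannot change a gene's own log2 ratio, so those alternatives are no check of it. With a pseudocount of 5 FPKM, which pulls low genes towards 0, all 3 were under 2-fold, at 0.70 for Fas, 0.71 for Bbc3 and 0.47 for Casp12. Without a pseudocount their log2 ratios were 1.79, 1.51 and 1.54, where 13.3% of all genes were at least 2-fold higher. Bax was under 2-fold in all 9 of them.

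**Figure D3:**
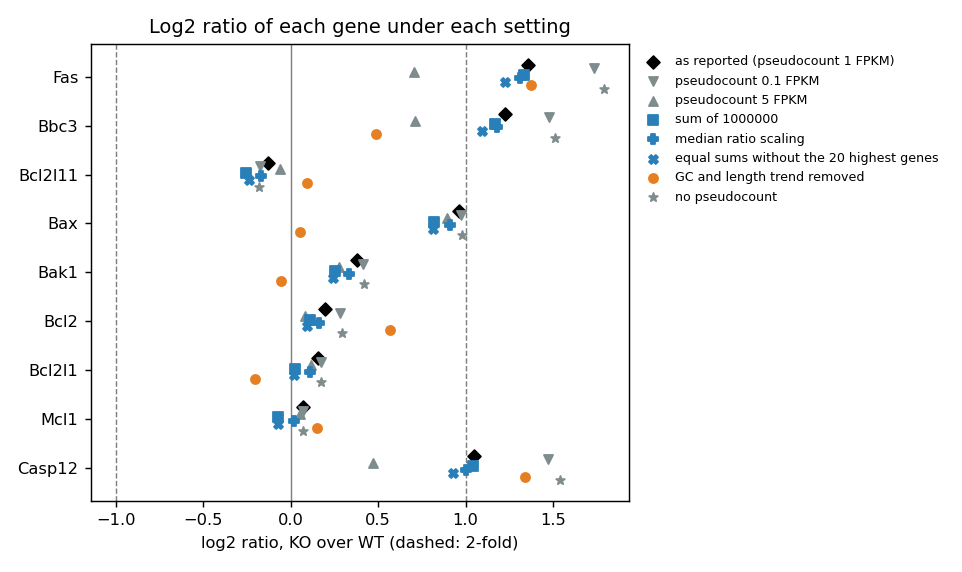
Log2 ratio of KO over WT (horizontal axis) for each of the 9 genes under the reported setting (black diamonds), other pseudocounts (grey), other scalings (blue) and after removal of the GC and length trend (orange); dashed lines mark 2-fold. Fas and Casp12 stay at 1.37 and 1.34 after the trend is removed, while Bbc3 and Bax move to 0.49 and 0.055.

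The wider pathway was read from lists of cell-death genes. Of 83 expressed genes in these lists other than the 9 members, 9 lay 2-fold or more above WT and 6 lay 2-fold or more under it, with a median of 0.12 beside 0.077 over all genes, of which 6.98% and 3.88% were past these limits. These shares are the background for each count that follows. Of 14 expressed death receptors, ligands and adaptors, 2 were past 2-fold, both higher: Fas, and Tnfrsf25, the receptor of the ligand TL1A, at 2.36 against 0.433 FPKM (87 and 21 reads, ratio 5.44, 3.35 to 9.23). The median of that list was 0.41, and 0.094 after the trend on GC content and length was removed.

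Within the Bcl2 family, Bbc3 was the only 1 of 6 expressed BH3-only genes at least 2-fold higher. Bmf, which responds to loss of anchorage, was at 2.44 against 1.36 FPKM, a ratio of 1.79 (1.44 to 2.24), and Bik, an ER-located member, at 1.88 against 1.27 FPKM (1.48, 1.01 to 2.18). The third multidomain pro-apoptotic gene, Bok, was at 4.19 against 2.12 FPKM, a ratio of 1.98 (1.43 to 2.77) that was short of the limit on the log2(FPKM + 1) scale. Of 7 expressed anti-apoptotic genes, Bcl2l2, which encodes Bcl-w, was at least 2-fold lower, at 11.5 against 24.7 FPKM (2.15-fold lower, 1.84 to 2.52). Bcl2a1d, 1 of several near-identical copies of the A1 gene of leukocytes, was at least 2-fold higher at 2.68 against 0.658 FPKM, from 31 and 10 reads. Reads of the A1 copies cannot be assigned with certainty. In WT the level of Bcl2l2 was above that of each of the 3 anti-apoptotic members, and in KO it was below that of Mcl1.

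Of 9 expressed caspases, 2 were at least 2-fold higher, Casp12 and Casp1, and none was lower, beside 6.98% and 3.88% of all genes. Casp1, which activates interleukin-1β, was at 4.09 against 1.21 FPKM, a ratio of 3.38 (2.26 to 5.14). Casp4, the sensor of intracellular lipopolysaccharide, named after its values were seen, was at 2.94 against 1.03 FPKM, a ratio of 2.86 (1.80 to 4.65) and a log2 ratio of 0.96. These 3 inflammatory caspases lie next to each other on chromosome 9, with Casp4 from 5308849 to 5336791 and Casp1 from 5298517 to 5307281. Casp1 and Casp4 are strongly expressed by macrophages, whose markers were higher in KO (13 of 13, summed 393 against 171 FPKM); their part was not tested. The initiator gene Casp9, also named after its values were seen, was at 4.96 against 4.57 FPKM, a ratio of 1.09 (0.924 to 1.28), and it overlaps the acinar gene Cela2a.

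Fas, Bbc3 and Bax are known p53 targets, so the list of p53 and its targets was set beside them. Of 22 expressed genes in it, 4 were at least 2-fold higher, Fas, Bbc3, the cell-cycle inhibitor Cdkn1a (29.3 against 13.3 FPKM, ratio 2.20) and the kinase Plk2 (14.8 against 5.68 FPKM, ratio 2.60), and 1 was lower, the ribonucleotide reductase subunit Rrm2b (3.76 against 10.7 FPKM, 2.83-fold lower, 2.49 to 3.24), beside 6.98% and 3.88% of all genes; the list was chosen because it holds Fas, Bbc3 and Bax. The list's median was -0.051, under that of all genes, with 10 of 22 above 0 (54.4% of all genes were), and 0.046 with 13 of 22 above 0 once the GC and length trend was taken out. Mdm2, the p53-induced ubiquitin ligase that degrades p53, was at 7.90 against 7.97 FPKM, a ratio of 0.992 (0.906 to 1.09), and was named after its values were seen. In the list of mitochondrial and apoptosome factors, 2 of 16 were at least 2-fold higher, the nuclease Dffb (5.92 against 2.18 FPKM, ratio 2.71) and the mitochondrial protease Htra2 (16.7 against 7.71 FPKM, ratio 2.17), and the median was 0.053; Htra2 overlaps Loxl3 and Aup1. Of the genes named from these lists, Casp1 (1.27), Plk2 (1.31) and Bcl2l2 (-1.16) were still past 2-fold after the trend was taken out. Tnfrsf25 (0.59), Bcl2a1d (0.94), Cdkn1a (0.73), Dffb (0.89), Htra2 (0.49) and Rrm2b (-0.88) were not, and Bok was at -0.0017, Bmf at 0.44 and Bik at -0.38.

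**Figure D4:**
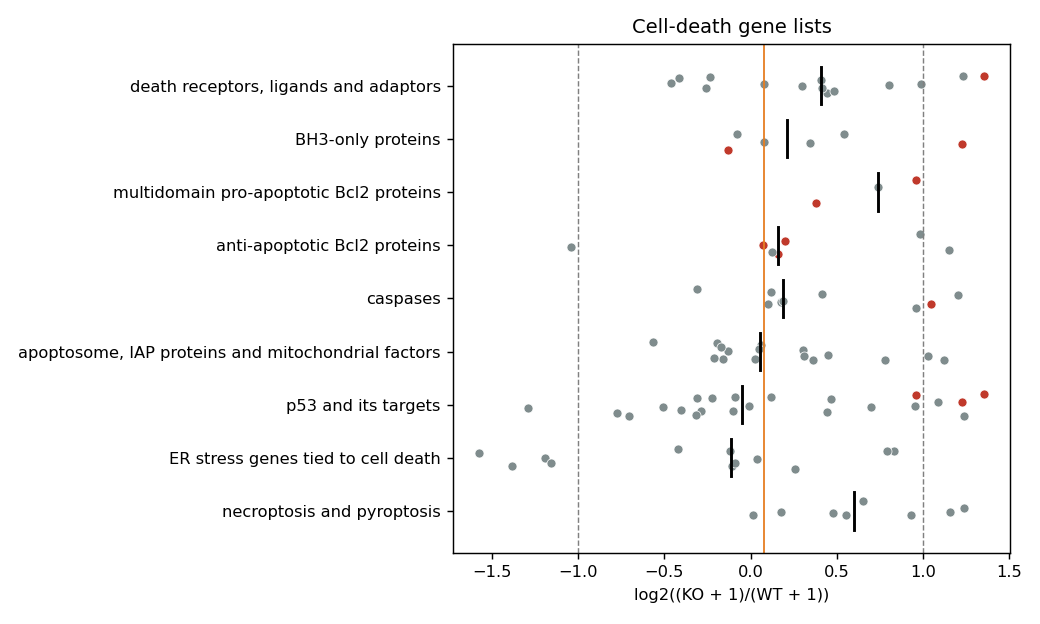
Log2 ratio (horizontal axis) of each expressed gene of 9 cell-death lists; red points are members of the set of 9, grey points other genes, black bars list medians, the orange line the median of all expressed genes (0.077) and dashed lines 2-fold. List medians go from -0.12 for ER stress genes to 0.74 for the 3 multidomain pro-apoptotic genes.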

How the data were processed

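RNA-seq of 1 KO and 1 WT islet library was used, named by genotype in the labels. The authors deposited FPKM values; the submitters' processing notes name mm10 (GRCm38) as the build. Aligner, counter, annotation and strand setting: not given in the sources used here. FPKM values were used without further scaling. Ratios of low genes between columns and a scan of candidate totals gave library totals with which 17178 of 17245 genes (99.6%) came out as whole reads within 1e-05 of a read plus 1e-09 times the reads, for lengths of 60 to 30000 bases; 2.5% of 1000 shuffled pairs did. The smallest such reads gave exact intervals (Clopper-Pearson for ratios, Poisson for levels). A gene's real reads may be a whole multiple of these. PCR copies are not separate molecules, so the intervals hold counting error alone.

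Each difference is log2((KO + 1)/(WT + 1)), whose pseudocount of 1 FPKM understates low genes, over genes that reached 1 FPKM in 1 or both libraries. A gene was called at 2-fold on that scale, with no p-value. Reads search, calls and intervals were tested on simulated data. The members and lists were chosen with earlier results of these data known. Named genes were the members, Cgas, and from each list the genes past 2-fold or else the 2 widest; other pathway genes are marked in the text, and cell type markers were named after their values were seen. Alternatives were a pseudocount of 0.1 or 5 FPKM, a floor of 5 FPKM or none, 3 scalings, a limit of 1.5-fold, removal of a lowess trend (fraction 0.3, 3 iterations) on GC content and length from GENCODE M21 transcripts, available for 99.6% of expressed genes, and, chosen after seeing the data, no pseudocount. Promoters and positions came from RefSeq on GRCm38.p6. The work used Python 3.11.15, scipy 1.17.1 and statsmodels 0.14.6. Values of some single genes are not reported here.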

Additional observations from a re-analysis of the deposited data

How the results depend on the processing

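No paired analysis was possible because each genotype has 1 library. For the 9 genes, 3 were at least 2-fold higher as reported and 0 lower, beside 6.98% and 3.88% of all genes. With a pseudocount of 5 FPKM the count higher was 0, where 305 of 12428 genes were higher. With a limit of 1.5-fold it was 4, where 21.4% of all genes were higher. A floor of 5 FPKM left out Bcl2, Bcl2l11 and Casp12 and moved the median of the remaining genes from 0.38 to 0.67. The median of all 9 was 0.15 once the GC and length trend was taken out and 0.24 with equal sums without the 20 highest genes. Of 83 other cell-death genes, 9 were at least 2-fold higher as reported. The count was 17 with a pseudocount of 0.1 FPKM, where 1556 of 12428 genes were higher. Without a pseudocount it was 18, where 13.3% of all genes were higher, and with a pseudocount of 5 FPKM it was 0. It was 3 once the GC and length trend was taken out, where 3.24% of all genes were higher. The count lower was 6 as reported and 2 with a pseudocount of 5 FPKM, where 181 of 12428 genes were lower. Bbc3 and Bax depended on the GC and length trend, as given in the report, and Casp12 fell under 2-fold with a pseudocount of 5 FPKM and with equal sums without the 20 highest genes. Depth limits Casp12 in WT (51 reads) and Fas in WT (80 reads) most. A gene total cannot show which islet cells the reads came from, and without replicates the variation between mice is unknown.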

Other observations

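All 8 expressed genes of necroptosis and pyroptosis were above 0 in log2 ratio, with a median of 0.60 beside 0.077 over all genes, of which 54.4% were above 0; 7 of 8 were above 0 under each of the 3 scalings. The 2 at least 2-fold higher, beside 6.98% of all genes, were Gsdmd, whose cleaved product forms membrane pores (10.6 against 3.90 FPKM, ratio 2.71, 2.22 to 3.32), and the cytokine gene Il18 (6.24 against 2.25 FPKM, ratio 2.78, 2.08 to 3.75), which overlaps Bco2 and Tex12. With the GC and length trend removed the median was 0.54 and none was at least 2-fold higher. Macrophages express many genes of this list, and the 13 macrophage markers had a median of 1.06, or 0.45 with the trend removed; their part was not tested.

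The 3 sensors of ER stress, which can feed into Bcl2l11, Bbc3 and Casp12, were each lower by more than 2-fold in KO. Of 12 expressed genes that tie ER stress to cell death, 4 were at least 2-fold lower and none higher, beside 3.88% and 6.98% of all genes, and 4 of 12 were above 0, with a median of -0.12. The sensor genes were Atf6 (8.70 against 28.0 FPKM, 3.21-fold lower, 3.00 to 3.44), Ern1 (10.9 against 29.9 FPKM, 2.75-fold lower, 2.41 to 3.16) and Eif2ak3 (8.75 against 21.3 FPKM, 2.43-fold lower, 2.22 to 2.67). The fourth was the oxidase Ero1a (5.92 against 14.4 FPKM, 2.44-fold lower, 2.07 to 2.89). Ddit3, the CHOP factor downstream of Eif2ak3, named after its values were seen, was at 19.7 against 10.6 FPKM, a ratio of 1.85 (1.57 to 2.19), and overlaps Mbd6 and Mars1; its log2 ratio of 0.83 was 0.12 with the trend removed. With the trend removed, 3 of the 12 were at least 2-fold lower, beside 2.96% of all genes, and the median was -0.38. Acinar markers were lower in the same library, with sums of 138 against 2190 FPKM. Of 12 β-cell markers 4 were above 0 in log2 ratio, with a median of -0.55. The part of these cell types in the ER stress values was not tested.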
